A study of Mus musculus with 6 samples.

Results

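The genes described here are the nuclear-encoded subunits of the mitochondrial respiratory chain and ATP synthase. They were taken by symbol, through the RefSeq accession that the array gives for each probe. Symbols beginning Ndufa, Ndufb, Ndufc, Ndufs or Ndufv stand for complex I, Sdha to Sdhd for complex II, Uqcr for complex III, Cox4i, Cox5, Cox6, Cox7 and Cox8 for complex IV, and Atp5 for complex V. Assembly factors and pseudogenes were left out. Cyc1, the cytochrome c1 of complex III, does not carry such a symbol and is no member. In all, 84 genes of this set had a probe, and 83 of them are among the 44781 genes of the array with a usable probe. Of these, 75 reached a mean of 8 on the log2 intensity scale, or 256 unscaled, and were compared among the 8582 genes that reached it. They comprise 35 genes of complex I, 4 of complex II, 8 of complex III, 11 of complex IV and 17 of complex V. Another 8 members were dimmer and are described by their intensities. The only probe of Ndufa1 had an unusable spot on WT array 1, and no probe was matched to Cox5b, Ndufb1, Ndufb4b or Ndufb4c. The members just above the minimum were Ndufab1 (8.08), Ndufa8 (10.2) and Ndufa11 (10.7), and those just below it were Cox4i2 (6.62), Cox6b2 (6.46) and Cox7a1 (6.13).

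The cells were TEa cells, CD4+ T cells on a C57BL/6 background that carry one transgenic T cell receptor (Vα2+Vβ6+), and they were sorted by flow cytometry from spleen. They came from WT or Irf4-/- TEa donors, were CD45.2+, and 5000000 of them were transferred on day -1 into B6.SJL mice, which are CD45.1+ and keep their own lymphocytes. Every recipient was grafted with a Balb/c heart on day 0, and the cells were recovered on day 6. Recipients of Irf4-/- cells were injected on days 0, 3 and 5 with 400 µg of rat IgG (the Irf4 KO IgG group) or with 200 µg of anti-PD-L1 and 200 µg of anti-CTLA-4 together (the Irf4 KO blockade group). The WT IgG group is labelled as given rat IgG, with no dose or days stated, and no group of WT cells received the blockade. The comparisons ask what differs in transferred cells labelled as lacking Irf4, a transcription factor induced through the T cell receptor, and what differs in such cells under checkpoint blockade. Each of the 3 groups has 2 arrays, labelled as a first experiment (array 1) and its repeat (array 2), and the 6 arrays are single-colour arrays that lie on 1 slide. Nothing further says which arrays come from separate animals, so p-values measure the spread between these samples, which may be technical.

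Complexes I and II pass electrons from NADH and succinate to ubiquinone, complex III passes them through cytochrome c to complex IV, and complex IV reduces oxygen. The protons pumped on the way drive ATP synthase, also called complex V. Each complex has a catalytic core and, complex II apart, many small accessory subunits, and activated T cells enlarge their mitochondria while they also turn to glycolysis. A few core subunits are encoded in mitochondrial DNA. Those were not analysed here.

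The signal of Irf4 itself goes against the labels. Its brighter probe read 673 and 1068 in WT, 2128 and 3073 in Irf4 KO IgG, and 2071 and 1703 under blockade, and where that probe lies relative to the deletion was not analysed here. The KO groups are therefore the arrays labelled Irf4 KO throughout. All 8 T cell markers examined were well above background on every array. Between arrays, the percentage of probes passing background was 34.8% to 40.8% in WT and under blockade, and 65.8% and 75.2% in Irf4 KO IgG. The median unscaled intensity of the probes used was 5.17 to 9.08 in WT and under blockade, and 46.5 and 76.6 in Irf4 KO IgG. Some markers of other cells were also brighter there. The erythroid, dendritic and CD8 or NK sums did not stand above every other array on both Irf4 KO IgG arrays. Of 6 B cell genes, 1 was well above background on both arrays of WT, 1 on both of blockade and 6 on both of Irf4 KO IgG. Their summed intensity was 95.8 to 109 with WT, 308 to 345 with blockade, and 876 and 5159 on Irf4 KO IgG arrays 1 and 2. The 7 genes of monocytes, macrophages and neutrophils summed to 4156 to 5087 with WT and 4270 to 6959 with blockade, against 7700 and 65137 on Irf4 KO IgG arrays 1 and 2. The 6 genes of erythroid cells and platelets summed to 289 to 1315 with WT, 2554 and 98295 with Irf4 KO IgG, and 12262 to 20455 with blockade. The 4 dendritic cell genes summed to 7565 to 13935 with WT, 23901 and 12999 on Irf4 KO IgG arrays 1 and 2, and 4757 to 7377 with blockade. The 4 genes of CD8 T and NK cells summed to 785 to 932, 882 to 1289, and 688 to 1052 in the same order of groups. The T cell markers themselves had a median log2 fold change of -0.24 in Irf4 KO IgG against WT, with 6 of 8 below 0, and of -0.22 with blockade against Irf4 KO IgG, with 8 of 8 below 0. The 2 proliferation genes, Mki67 and Top2a, had medians of -0.87 and 1.49 in these comparisons. With blockade against WT, the T cell markers had a median of -0.38, with 7 of 8 below 0, and the proliferation genes one of 0.62. Across the 3 comparisons limma called 0 genes of either list, where at most 1.14% of all genes were called in a direction. The median level of the respiratory chain genes was 13.16 on Irf4 KO IgG array 1 and 13.22 on array 2, and their median log2 fold change against WT was -0.17 without array 1 and -0.25 without array 2. The part of other cells, of proliferation and of the higher median probe intensity in the values below was not tested. That higher intensity falls on both Irf4 KO IgG arrays and no others, so it cannot be told apart from the group. The marker sums and background counts are unscaled and come from the same arrays. In bulk RNA, fewer cells of a type and less RNA per cell cannot be told apart.

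Compared with WT, most respiratory chain genes stood lower on the Irf4 KO IgG arrays by a small step. On the blockade arrays their median stood near that of WT. Levels are given as log2 of the quantile-normalised intensity, so each is relative to the other bright genes. The median level over the 75 members was 13.45 and 13.36 in WT, 13.16 and 13.22 in Irf4 KO IgG, and 13.46 and 13.47 under blockade. The Irf4 KO IgG arrays were the lowest in this order, and they did not overlap with the other 4. For single genes, both Irf4 KO IgG arrays lay below all 4 others for 50 of the 75 members, an order that 18.6% of all 8582 genes showed. They lay above all 4 others for 1 member, Sdha, against 13.9% of all genes. The plot of every member on every array shows this order by complex. For complex II it rests on Irf4 KO IgG array 1: its median log2 fold change against WT was -0.14 and became -0.02 without that array.

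**Figure D1:**
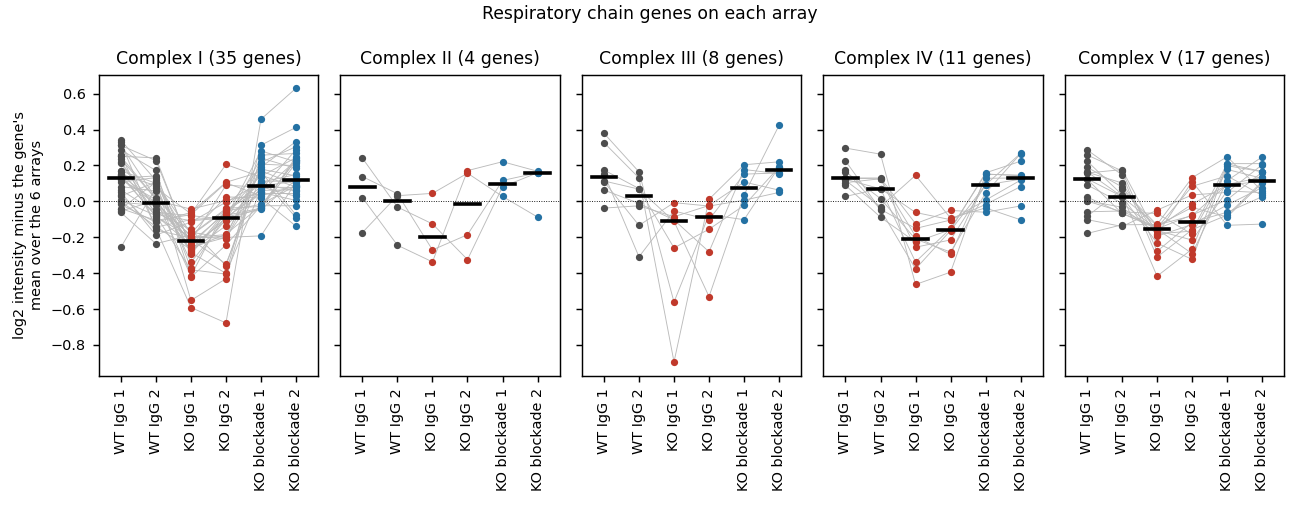
Log2 intensity of each of the 75 measured members on each array, minus that gene's mean over the 6 arrays, by complex; grey lines join the values of a gene, coloured points are the genes (grey WT IgG, red Irf4 KO IgG, blue Irf4 KO blockade), and black bars are medians. In each complex the medians of both Irf4 KO IgG arrays lie below those of the other 4 arrays, by little for complex II on Irf4 KO IgG array 2.

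In Irf4 KO IgG against WT IgG, 64 of the 75 members had a log2 fold change below 0, where 52.3% of all genes did, and 11 were above 0, where 47.6% of all genes were. The median was -0.22 for the members and -0.02 for all genes. The range ran from -0.72 (Ndufab1) to 0.17 (Sdha). The groups did not overlap for 55 members that were lower (29.3% of all genes) and for 3 that were higher (23% of all genes). At an unadjusted p under 0.05 in limma, 24 members were lower, against 12.8% of all genes, and 0 were higher, against 10.5%. After Benjamini-Hochberg adjustment over the 8582 genes, limma called 1 member lower, Ndufa4, where 0.816% of all genes were called, and 0 higher, where 1.14% were. With 2 arrays a group and 3 residual degrees of freedom, the standard error of a member's log2 fold change ran from 0.105 (Cox5a) to 0.294 (Uqcr11).

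Ndufa4, a small subunit first assigned to complex I and now placed in complex IV, fell by 0.71 on the log2 scale (SE 0.106, limma adjusted p = 0.0487). Its level was 12.60 and 12.57 in WT, 11.84 and 11.91 in Irf4 KO IgG, and 12.45 on both blockade arrays. The 3 groups do not overlap, and blockade lies between the other groups, close to WT. As an unscaled intensity, Ndufa4 read 5927 and 7450 in WT, 3228 and 5319 in Irf4 KO IgG, and 5504 and 4401 under blockade, so that without scaling Irf4 KO IgG array 2 lay among the blockade arrays. The call is at the edge of the threshold. The adjusted p in limma was 0.0556 under cyclic loess, 0.0503 with a minimum of 7, 0.102 with the replicate number as a block, and between 0.0771 and 0.211 when any 1 of the 6 arrays was left out.

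The scale decides how large the shift looks. When each array was divided by its 75th percentile over all probes, all 75 members were called lower in Irf4 KO IgG than in WT. With blockade against Irf4 KO IgG all 75 were called higher. In that fit 7740 of all 28249 genes were called lower in the first comparison and 7873 higher in the second. The median of all bright genes moved with the members, by -1.05 and 1.09. The members' median lay at -0.43 from that of the bright genes in the first comparison and at 0.53 from it in the second. The 11 members above 0 in the first comparison, Sdha among them, and the 4 below 0 in the second thus turn with this scaling, and a direction near 0 in what follows is one relative to the other bright genes. With blockade against WT, 63 of 75 members were above 0 under this scaling, in place of 49. When the bright probes were only centred on their median, 74 of 75 members were below 0 in Irf4 KO IgG against WT. Of these, 4 were called lower, beside 144 of all 8582 genes. With blockade against Irf4 KO IgG 75 of 75 were above 0 and 27 were called higher, beside 570 of all 8582 genes.

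The members' shift was seen at every level that held members, and its size was smaller among the brightest. The members were split by mean level into steps of 1 log2 unit, and in each step that held members their median in Irf4 KO IgG against WT was below that of all genes of the step. It was -0.35 against -0.03 for the 5 members between 10 and 11, -0.31 against -0.01 for the 8 members between 11 and 12, -0.28 against -0.02 for the 16 members between 12 and 13, and -0.17 against 0.01 for the 9 members over 15.

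**Figure D2:**
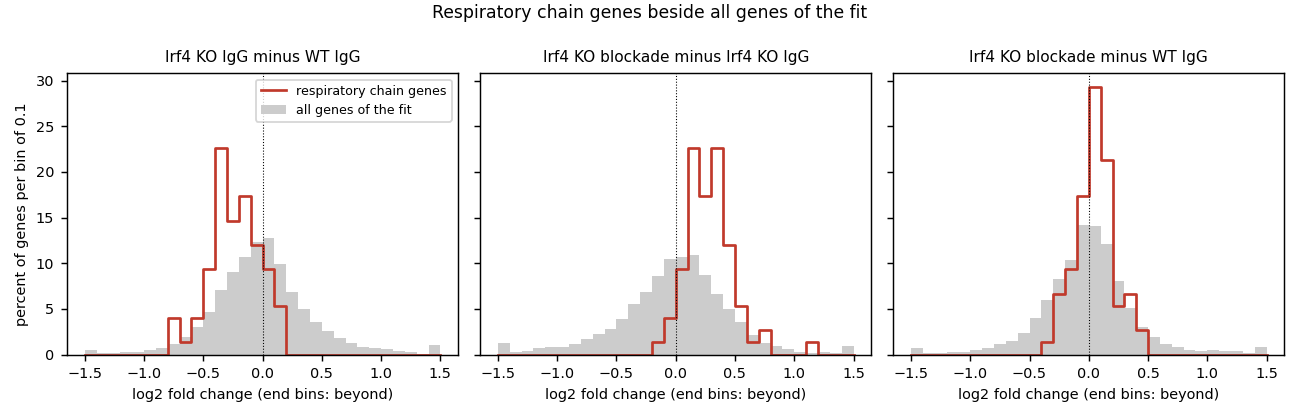
Distribution of log2 fold changes in bins of 0.1, as a percent of genes, for the 75 respiratory chain genes (red line) and all 8582 genes of the fit (grey bars) in each of the 3 comparisons; the end bins hold everything beyond. The members lie left of 0 in Irf4 KO IgG minus WT IgG (median -0.22), right of 0 in Irf4 KO blockade minus Irf4 KO IgG (median 0.28) and close to 0 in Irf4 KO blockade minus WT IgG (median 0.06).

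The promoters are shown because so many members had the same order of groups. Promoter windows from RefSeq (GRCm38.p6, 250 bases before to 50 after the start) were at hand for 63 of the 75 members, in 68 windows. Each was searched on both strands for the core of the NRF1 motif (CGCANGCG), an ETS motif of the kind GABPA binds (CCGGAAG), a YY1 motif (AAGATGGCG) and the SP1 box (GGGCGG). NRF1 and GABPA are factors known for driving respiratory chain genes. The NRF1 core was in 42.6% of the members' windows and 8.21% of all 32851 windows of the table. The ETS letters were in 25% against 8.86%, the YY1 letters in 10.3% against 1.4%, and the SP1 box in 39.7% against 35.7%. All windows of the table cover 27025 genes, not only bright ones, so these shares do not set members apart from bright genes in general. Matches of different motifs overlapped in 1 member window, for the ETS and SP1 letters. The NRF1 core was in 61.1% of the complex V windows and in 11.1% of the complex IV windows. Of the members with a window, it was in 13 of the 44 whose Irf4 KO IgG arrays lay below all others and in 13 of the 19 others, a description of genes sorted by the values above, with no test. The stretches from 150 bases before the start up to it are shown for 3 of the members with the lowest log2 fold changes in Irf4 KO IgG against WT and for Sdha, which had the highest. Capitals mark the matches that lie wholly within the stretch. All 4 are on the minus strand, at chr6:11907451-11907600 for Ndufa4, chr2:36049339-36049488 for Ndufa8, chr10:80406822-80406971 for Uqcr11 and chr13:74350241-74350390 for Sdha.
Ndufa4: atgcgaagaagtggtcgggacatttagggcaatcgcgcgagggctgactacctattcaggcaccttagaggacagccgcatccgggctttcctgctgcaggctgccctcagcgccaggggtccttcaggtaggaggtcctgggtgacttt
Ndufa8: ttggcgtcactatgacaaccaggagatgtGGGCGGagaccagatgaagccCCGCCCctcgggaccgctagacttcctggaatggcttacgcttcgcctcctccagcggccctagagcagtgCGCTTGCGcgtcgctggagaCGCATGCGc
Uqcr11: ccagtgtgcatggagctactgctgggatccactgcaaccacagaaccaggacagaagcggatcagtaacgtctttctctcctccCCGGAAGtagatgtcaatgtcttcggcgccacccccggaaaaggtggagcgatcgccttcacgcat
Sdha: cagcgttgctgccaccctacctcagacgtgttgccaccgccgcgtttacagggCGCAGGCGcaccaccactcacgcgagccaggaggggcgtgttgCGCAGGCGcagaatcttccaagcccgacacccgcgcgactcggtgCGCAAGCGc
None of the 4 motifs was found in the Ndufa4 window. Ndufa8 holds 2 NRF1 cores, within 29 bases of the start, and 2 SP1 boxes further up. Uqcr11 holds an ETS match, and an NRF1 core that crosses the start and so is not capitalised. Sdha, which did not stand lower, holds 3 NRF1 cores. No match in a window says only that these letters are not there.

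Complex I takes electrons from NADH. Its 7 core subunits measured here carry the flavin and the iron-sulphur clusters of the matrix arm. Their median log2 fold change was -0.05 in Irf4 KO IgG against WT, with 4 below 0 and 3 above. In limma 0 were called, where 0.816% of all genes were called lower and 1.14% higher. Ndufv1, which binds NADH and the flavin, was at 12.42 and 12.35 in WT, 12.38 and 12.56 in Irf4 KO IgG, and 12.49 and 12.54 under blockade. Ndufs1, which holds several of the clusters, was at 11.30 and 11.20, at 11.26 and 11.43, and at 11.48 and 11.24 in the same order. For both genes the WT and Irf4 KO IgG arrays overlapped. Ndufv2 had its blockade arrays highest, at 12.55 and 12.64 against 12.37 and 12.17 in WT and 12.13 and 12.14 in Irf4 KO IgG. Ndufs8 likewise stood highest under blockade, at 13.68 and 13.63, against 13.45 and 13.36 in WT and 13.20 and 13.33 in Irf4 KO IgG. Ndufs3 and Ndufs7 had log2 fold changes of -0.09 and -0.05 in Irf4 KO IgG against WT and of 0.18 and 0.14 with blockade against Irf4 KO IgG.

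The accessory subunits of the membrane arm stood further from 0. All 18 measured had a log2 fold change below 0 in Irf4 KO IgG against WT, with a median of -0.31, and all 18 were above 0 with blockade against Irf4 KO IgG, with a median of 0.32. For 17 of the 18, both Irf4 KO IgG arrays lay below the other 4 (18.6% of all genes). None was called in limma, where 0.816% of all genes were called lower in the first comparison and 0.198% higher in the second. Of the 18, 7 were lower than in WT at an unadjusted p under 0.05 (12.8% of all genes). Ndufa8, a subunit that faces the intermembrane space, was at 10.49 and 10.27 in WT, 9.60 and 9.72 in Irf4 KO IgG, and 10.41 on both blockade arrays. Its WT and blockade arrays overlap and its Irf4 KO IgG arrays stand apart, and the log2 fold change was -0.72 against WT (SE 0.129, limma adjusted p = 0.0607) and 0.75 with blockade (adjusted p = 0.0678). Ndufb6 was at 11.12 and 10.91 in WT, 10.60 and 10.58 in Irf4 KO IgG, and 11.30 and 11.40 under blockade, where it was above WT too. Its log2 fold change with blockade against Irf4 KO IgG was 0.76 (SE 0.126, limma adjusted p = 0.0665). Ndufb11, encoded on the X chromosome, was at 14.32 and 14.24 in WT, 13.76 and 13.81 in Irf4 KO IgG, and 13.82 and 14.12 under blockade. It stayed below WT under blockade, at -0.31 from WT on the log2 scale (SE 0.14, limma adjusted p = 0.304), the lowest of the members in that comparison. Ndufc1 and Ndufb2, chosen after their values were seen, had log2 fold changes of -0.56 and -0.51 in Irf4 KO IgG against WT.

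The 9 accessory subunits of the matrix arm were spread more widely, from -0.47 (Ndufv3) to 0.16 (Ndufa5) in Irf4 KO IgG against WT, with a median of -0.21. Ndufv3, a small subunit beside the NADH site, was at 14.44 and 14.43 in WT, 13.93 and 14.01 in Irf4 KO IgG, and 14.17 on both blockade arrays. It lay between the other groups under blockade, -0.27 from WT (SE 0.107, limma adjusted p = 0.253). Ndufa5 had overlapping values in all groups, from 13.07 to 13.53. Ndufa2 was at 14.15 and 14.08 in WT, 13.80 and 14.01 in Irf4 KO IgG, and 14.00 and 13.84 under blockade, so here the blockade arrays stayed with the Irf4 KO IgG arrays.

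Ndufab1, the mitochondrial acyl carrier protein, sits in complex I and also serves fatty acid and iron-sulphur cluster synthesis. It showed the lowest log2 fold change of the members against WT, -0.72 (SE 0.185, limma adjusted p = 0.108), and the highest with blockade against Irf4 KO IgG, 1.18 (adjusted p = 0.0618). Its level was 8.36 and 7.88 in WT, 7.44 and 7.35 in Irf4 KO IgG, and 8.49 and 8.66 under blockade. The 3 groups do not overlap. It is also the dimmest of the 75 members, next to the minimum, and unscaled it read 276 and 267 in WT, 193 and 302 in Irf4 KO IgG, and 328 and 277 under blockade, where the groups do overlap.

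**Figure D3:**
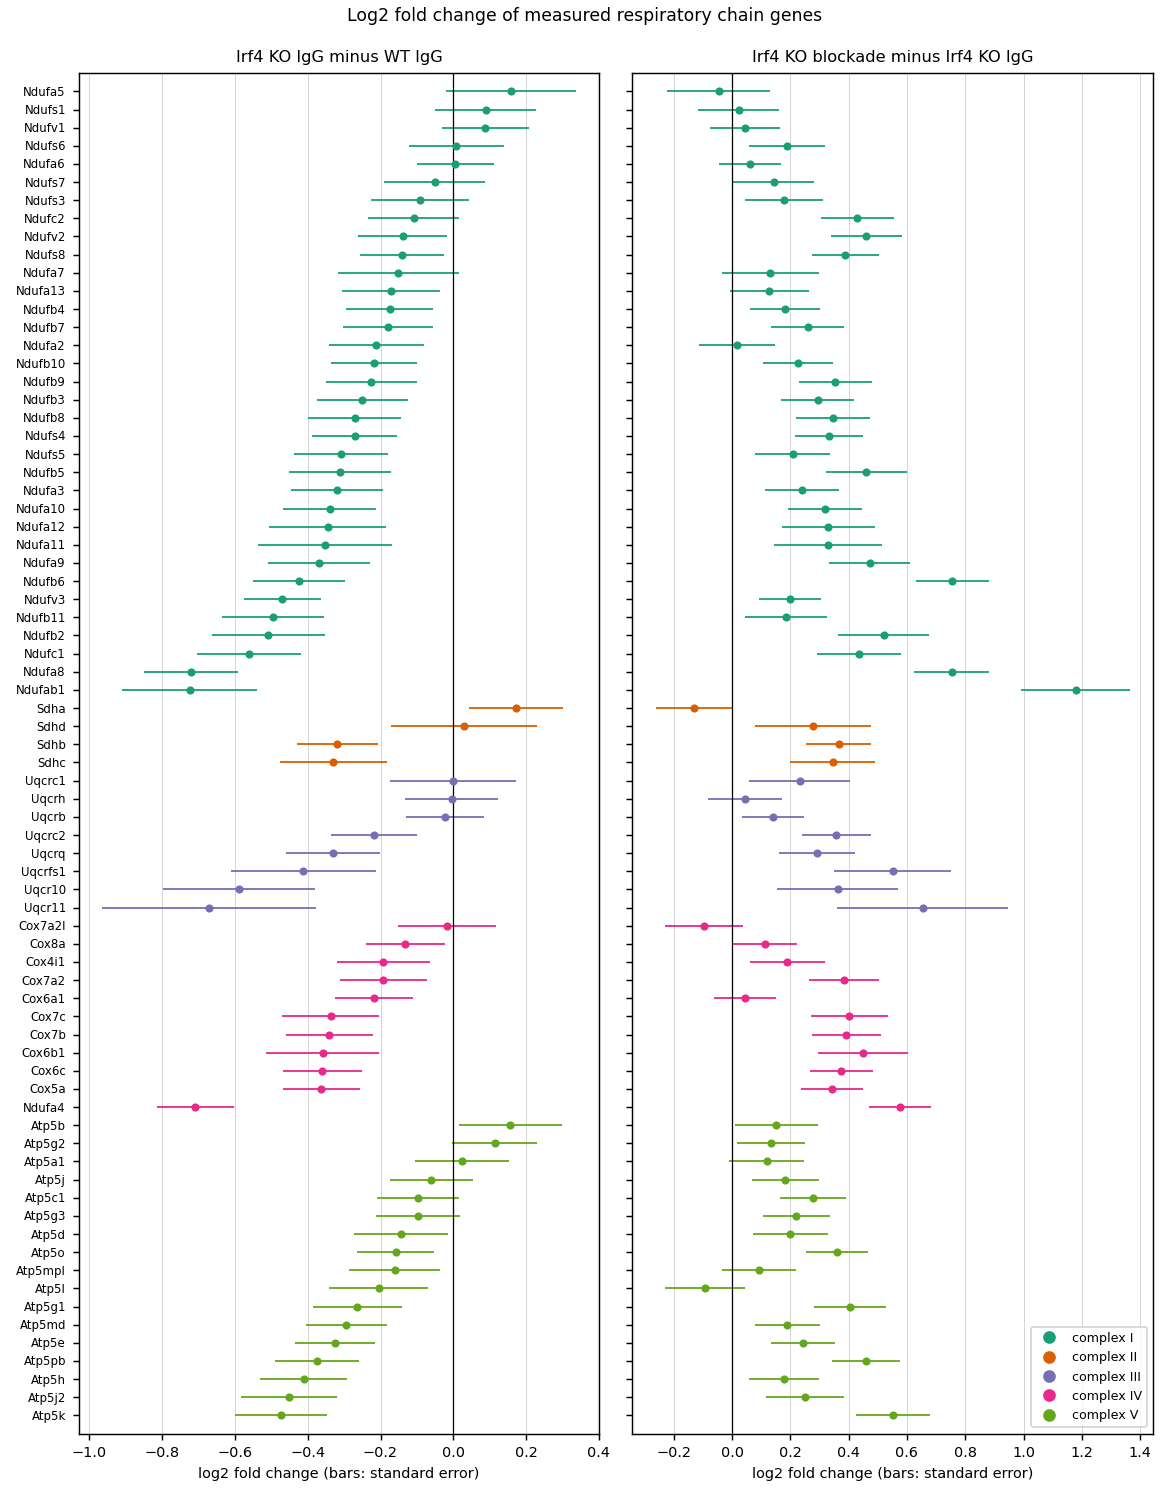
Log2 fold change of measured members in Irf4 KO IgG minus WT IgG (left) and Irf4 KO blockade minus Irf4 KO IgG (right), sorted within each complex by the left panel; bars are limma standard errors and colours mark the complex. Ndufab1, Ndufa8 and Ndufa4 lie lowest on the left (-0.72, -0.72 and -0.71), and the panels share the Irf4 KO IgG arrays, so they are not independent; values near 0 change sign when arrays are scaled on their 75th percentile.

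Complex II, succinate dehydrogenase, is also an enzyme of the citrate cycle. Its 4 genes were not alike in level across the groups. Sdha, the flavoprotein that oxidises succinate, was at 11.34 and 11.55 in WT, 11.56 and 11.67 in Irf4 KO IgG, and 11.54 and 11.43 under blockade. It was the member with the highest log2 fold change against WT, 0.17 (SE 0.13, limma adjusted p = 0.468), and the lowest with blockade, -0.13 (adjusted p = 0.526). Sdhb, the iron-sulphur subunit, was at 13.69 and 13.60 in WT, 13.28 and 13.37 in Irf4 KO IgG, and 13.67 and 13.71 under blockade, with the Irf4 KO IgG arrays apart from the rest. The membrane anchors differed from each other. Sdhc was at 10.98 and 10.70, 10.61 and 10.41, and 10.82 and 10.89 in WT, Irf4 KO IgG and blockade, whereas the 2 Irf4 KO IgG arrays of Sdhd were 11.06 and 11.57 and spanned its WT values of 11.42 and 11.16.

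Complex III had all 8 measured members below 0 in Irf4 KO IgG against WT, with a median of -0.27, and all 8 above 0 with blockade against Irf4 KO IgG, with a median of 0.32. In limma 0 were called in either comparison, where 0.816% of all genes were called lower in the first and 0.198% higher in the second. At an unadjusted p under 0.05 were 2 of the 8 in each, where 12.8% of all genes were lower in the first and 15% higher in the second. The lowest log2 fold changes were those of small subunits. Uqcr11 was at 13.31 and 13.11 in WT, 12.09 and 12.99 in Irf4 KO IgG, and 13.19 and 13.20 under blockade. Array 1 of Irf4 KO IgG carries most of that difference, and the standard error of its log2 fold change of -0.67 was 0.294 (limma adjusted p = 0.246). Uqcr10 was at 14.52 and 14.31 in WT, 13.58 and 14.07 in Irf4 KO IgG, and 14.04 and 14.34 under blockade, also with array 1 lowest. Uqcrfs1, the Rieske iron-sulphur protein, was at 11.53 and 11.49, 11.31 and 10.89, and 11.46 and 11.84 in the 3 groups, and here array 2 of Irf4 KO IgG was the lower. Of the core proteins, Uqcrc2 was at 12.57 and 12.50, 12.41 and 12.23, and 12.69 and 12.66, with Irf4 KO IgG lowest and blockade highest. Uqcrc1 had a log2 fold change of -0.00 (SE 0.173), with its Irf4 KO IgG values of 13.00 and 12.95 inside the WT values of 13.20 and 12.74. Uqcrh, the hinge protein that meets cytochrome c, and Uqcrb had log2 fold changes of -0.00 and -0.02. Cyc1 is not among the 8 and is counted below with the electron carriers. Its log2 fold changes were -0.05 in Irf4 KO IgG against WT and 0.24 with blockade against Irf4 KO IgG.

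Complex IV is cytochrome c oxidase. All 10 of its measured subunits, counting Ndufa4, were below 0 in Irf4 KO IgG against WT, with a median of -0.34, and for all 10 the WT and Irf4 KO IgG arrays did not overlap (29.3% of all genes). All 10 were above 0 with blockade against Irf4 KO IgG, with a median of 0.38. Of these, 7 were at an unadjusted p under 0.05 there (15% of all genes), and limma called 0 (0.198% of all genes). Cox5a, a subunit on the matrix side, was at 14.30 and 14.29 in WT, 13.91 and 13.95 in Irf4 KO IgG, and 14.26 and 14.29 under blockade. The Irf4 KO IgG arrays stand apart by far more than the arrays of a group differ, at -0.36 from WT on the log2 scale (SE 0.105, limma adjusted p = 0.133). Cox6b1, which faces the intermembrane space, was at 11.73 and 11.46, 11.13 and 11.34, and 11.60 and 11.77 in the 3 groups. Cox7a2 was at 13.66 and 13.49, 13.35 and 13.42, and 13.73 and 13.80, with blockade highest. Cox4i1, an early subunit of the assembly, and Cox8a had log2 fold changes of -0.19 and -0.13. Cox6a1 was at 16.02 on both WT arrays, 15.77 and 15.84 in Irf4 KO IgG and 15.83 and 15.87 under blockade, so that the blockade and Irf4 KO IgG arrays overlapped. Cox7a2l, which joins complexes III and IV into supercomplexes and is no subunit proper, had log2 fold changes of -0.02 against WT and -0.10 with blockade.

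**Figure D4:**
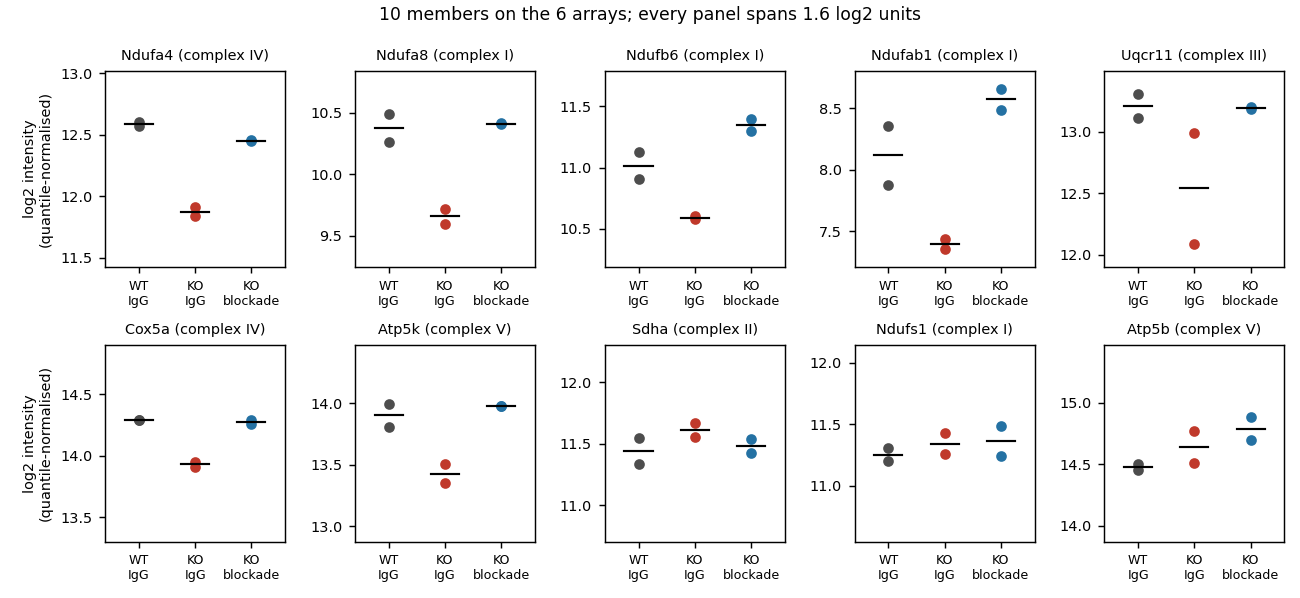
Quantile-normalised log2 intensity of 10 members on the 6 arrays (points, 2 per group) with the group means (bars); each panel spans 1.6 log2 units around its own middle. Ndufa4, Ndufa8, Cox5a and Atp5k show both Irf4 KO IgG arrays below the other 4, while Sdha, Ndufs1 and Atp5b do not.

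Complex V turns the proton gradient into ATP. Of its 17 members, 14 were below 0 in Irf4 KO IgG against WT (median -0.16) and 16 were above 0 with blockade against Irf4 KO IgG (median 0.20). None was called in limma in either comparison, where 0.816% of all genes were called lower in the first and 0.198% higher in the second. At an unadjusted p under 0.05, 6 were lower in the first (12.8% of all genes) and 5 higher in the second (15% of all genes). In the catalytic head, Atp5b, the catalytic subunit, was at 14.46 and 14.50 in WT, 14.51 and 14.77 in Irf4 KO IgG, and 14.88 and 14.69 under blockade, with WT lowest. Its partner Atp5a1 was at 14.92 on both WT arrays, 14.83 and 15.06 in Irf4 KO IgG, and 15.12 and 15.01 under blockade. Atp5c1, the rotating shaft, had log2 fold changes of -0.10 and 0.28 in the same comparisons. The small membrane subunits stood lower. Atp5k was at 13.99 and 13.80 in WT, 13.35 and 13.50 in Irf4 KO IgG, and 13.98 on both blockade arrays, at -0.47 from WT (SE 0.126, limma adjusted p = 0.116) and 0.55 from Irf4 KO IgG under blockade (adjusted p = 0.0785), both on the log2 scale. Atp5j2 was at 13.87 and 13.73, 13.27 and 13.42, and 13.50 and 13.69 in WT, Irf4 KO IgG and blockade, where blockade lies between the others. Atp5l kept low under blockade, at 14.29 on both arrays against 14.58 and 14.60 in WT and 14.23 and 14.53 in Irf4 KO IgG. In the stalk that holds the head, Atp5h was at 15.29 and 15.20, 14.75 and 14.91, and 14.97 and 15.06, and Atp5pb at 13.56 and 13.42, 13.16 and 13.07, and 13.60 and 13.56. The 3 genes for the ring of c subunits split: the log2 fold change against WT was -0.26 for Atp5g1, -0.10 for Atp5g3 and 0.11 for Atp5g2. These 3 encode the same mature protein, and several subunits have near-identical pseudogenes, so how far a probe also reads a copy was not tested. Atpif1, the inhibitor of the reversed enzyme, carries another symbol in the reference and is no member. It had log2 fold changes of -0.13 (SE 0.203) and 0.39.

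With blockade against IgG in the arrays labelled Irf4 KO, 71 of the 75 members had a log2 fold change above 0 (52.3% of all genes) and 4 below 0 (47.7% of all genes), with a median of 0.28 against 0.02 for all genes. The 4 were Sdha, Cox7a2l, Atp5l and Ndufa5. Groups did not overlap for 61 members that were higher (33.3% of all genes) and for 1 that was lower (29.4%). At an unadjusted p under 0.05, limma had 30 members higher, against 15% of all genes, and 0 lower, against 13.4%. After adjustment it called 0 members in either direction, where 0.198% of all genes were called higher and 0.14% lower. The smallest adjusted p was 0.0618, for Ndufab1. Since both comparisons use the Irf4 KO IgG arrays, a gene that read low on them is lower in the first and higher in the second, and the second is no independent count.

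For blockade in cells labelled Irf4 KO against WT IgG, the difference of means leaves the Irf4 KO IgG arrays out. They still entered the shared normalisation and the spread behind its standard errors and p-values. Here 49 of the 75 members were above 0 (49.2% of all genes) and 26 below (50.7%), with a median of 0.06 against -0.00 for all genes. Groups did not overlap for 26 members that were higher and 13 that were lower, against 27% and 28.1% of all genes. At an unadjusted p under 0.05, limma had 4 members higher (9.46% of all genes) and 1 lower (9.66%). After adjustment it called 0 higher and 0 lower, where 0.536% and 0.466% of all genes were called. Ndufv2, Ndufb6 and Ndufc2 were among the higher ones, and the 1 lower was Ndufv3. Ndufc2 was chosen after its values were seen. The median moved with single arrays of both groups. It was 0.11 without WT array 1, 7e-05 without WT array 2, 0.07 without blockade array 1 and 0.02 without blockade array 2. By class, the 7 complex I core subunits were all above 0 (median 0.13), whereas 4 of the 5 small membrane subunits of complex V were below it (median -0.10).

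Tissue-specific isoforms were dim. Cox4i1, Cox6a1, Cox6b1, Cox7a2 and Cox8a were all bright, while their counterparts were under the minimum. Cox4i2, known from lung, read 97.6 and 77.6 in WT, 102 and 221 in Irf4 KO IgG, and 106 and 49.3 under blockade, and Cox6b2 and Cox7a1 were also well above background on all 6 arrays. Cox7b2, Cox8c and Ndufa4l2 passed background on each array of Irf4 KO IgG and on none of the other 4, where more of the weak probes were above background in general. Cox7b2 read 63.5 and 170 on them, against 3.37 to 4.39 on the other arrays. Cox6a2, the heart and muscle isoform, was above background on 1 array, Irf4 KO IgG array 2, and Cox8b on none.

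A second reading came from other probes. The 16 members with more than 1 bright probe had 18 further probes. Their median log2 fold change in Irf4 KO IgG against WT was -0.20, beside -0.28 for the probes used, and 17 of the 18 had the sign of the probe used. With blockade against Irf4 KO IgG 17 of 18 had the same sign, and with blockade against WT 16 of 18. The widest gaps in log2 fold change between probes of a gene were 0.26 (Uqcrb, Irf4 KO IgG against WT), 0.40 (Atp5o, blockade against Irf4 KO IgG) and 0.29 (Atp5pb, blockade against WT). The further probe of Sdhb was at -0.06 in Irf4 KO IgG against WT, beside -0.32 for the probe used. The further probe of Ndufa5 had the other sign in the first 2 comparisons, at -0.004 and 0.08 beside 0.16 and -0.05. Ndufa4 has only 1 bright probe.

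Other mitochondrial genes were read from lists, by counts and medians. The mitochondrial ribosome, which translates the subunits encoded in mitochondrial DNA, had 74 of its 78 genes bright. In Irf4 KO IgG against WT 60 of these were below 0 with a median of -0.18. In blockade against Irf4 KO IgG 70 were above 0 with a median of 0.32. In each limma called 0, where 0.816% of all genes were called lower in the first and 0.198% higher in the second. At an unadjusted p under 0.05, 21 were lower in the first (12.8% of all genes) and 35 higher in the second (15% of all genes). Genes named from these lists were chosen after their values were seen. Mrps22 was at 8.91 and 8.77 in WT, 8.42 and 8.26 in Irf4 KO IgG, and 9.26 and 9.33 under blockade. Of 36 bright assembly factors, 27 were below 0 in the first comparison (median -0.20) and 28 above 0 in the second (median 0.30). In limma 0 of them were called, beside the same shares of all genes, 0.816% lower in the first and 0.198% higher in the second. Cox17, Cox18 and Pet100, which help build complex IV, had log2 fold changes of -0.58, -0.84 and -0.71 in Irf4 KO IgG against WT (limma adjusted p = 0.0666, 0.0648 and 0.0545). With blockade against WT they were still at -0.30, -0.43 and -0.45 (limma adjusted p = 0.228, 0.23 and 0.146). In that comparison 21 of the 36 assembly factors were above 0 and 15 below. Coa3, Sco2 and Cox10 of the same list were at -0.01, -0.14 and 0.08 in Irf4 KO IgG against WT. Sdhaf1, an assembly factor of complex II, went the other way, at 10.25 and 10.33 in WT, 11.13 and 11.79 in Irf4 KO IgG, and 10.94 and 10.88 under blockade (limma adjusted p = 0.066 in Irf4 KO IgG against WT). Of 9 bright genes for electron carriers and their makers, 8 were below 0 and then 9 above 0. Among them Cycs, cytochrome c, was at 12.39 and 12.22, 12.03 and 11.90, and 12.39 and 12.50 in WT, Irf4 KO IgG and blockade.

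Not every mitochondrial list showed this order. The 13 bright factors of mitochondrial biogenesis and DNA upkeep had a median of 0.10 in Irf4 KO IgG against WT, with 11 above 0, and of 0.00 with blockade against Irf4 KO IgG. Nrf1, the factor that binds the NRF1 motif, was at 9.17 and 9.38 in WT, 9.35 and 9.51 in Irf4 KO IgG, and 9.52 and 9.32 under blockade, overlapping in all groups. Esrra, a nuclear receptor that drives respiratory genes, was at 10.04 and 10.05, 9.95 and 9.96, and 9.42 and 9.49, lowest under blockade (log2 fold change against Irf4 KO IgG -0.50, SE 0.106, limma adjusted p = 0.0772). The 14 bright citrate cycle genes had medians of -0.07 and 0.11, and the 11 inner membrane carriers and structural proteins had medians of 0.01 and 0.27. The 15 bright glycolysis genes had medians of -0.13 and 0.16. In limma 0 genes of these 4 lists were called in either comparison, where at most 1.14% of all genes were called in a direction.

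**Figure D5:**
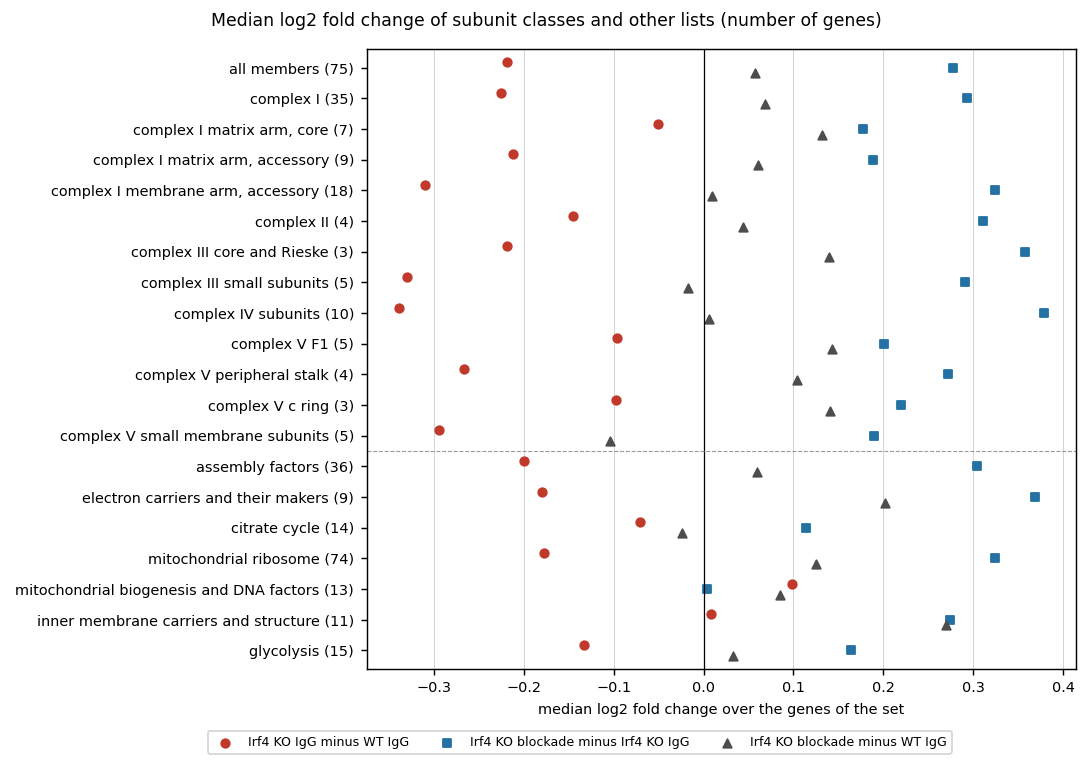
Median log2 fold change over the genes of each subunit class (above the dashed line) and of each other list (below it) in the 3 comparisons; the number of bright genes stands in brackets. Complex IV subunits (-0.34) and the small complex III subunits (-0.33) lie lowest in Irf4 KO IgG minus WT IgG among the classes shown, and the biogenesis factors (0.10) lie highest.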

How the data were processed

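RNA from sorted TEa cells was labelled with Cy3 and read on 6 single-colour Agilent arrays, 2 per group. The deposited intensity is the processed signal of Agilent Feature Extraction, background-subtracted by the scanner software, version 11.0.1.1 per the file headers and 9.1 per the submitters' processing notes. The authors' deposited value table holds the same signal divided by 1 number per array and served as an alternative. Of 56605 probes, 1234 with an unusable spot were left out, and 58.3% of the rest were named through RefSeq. Processed signals were put on the log2 scale, probes with a mean of at least 8 were quantile-normalised, and the probe with the highest mean was kept per gene. All 3 groups were fitted with limma 3.58.1 in R 4.3.3 (lmFit, eBayes), with Benjamini-Hochberg adjustment over 8582 genes and a threshold of 0.05. The fit was tested on simulated arrays with changes of 1 and 2 on the log2 scale. The changed genes lay away from the ends of the intensity scale, and shifts as small as those of most members were not simulated. Depth has no equivalent on arrays, where the number of arrays limits the precision. The members, lists and subunit classes were chosen with earlier results of these data known. Genes named were those past the threshold, the 2 highest and 2 lowest of each complex in each comparison, core subunits and tissue isoform pairs, apart from results not reported here. Alternatives were other scalings, minima, probe rules, blocks, background corrections and arrays left out. Levels are not compared between genes, since probes differ in response. Gene coordinates and promoter sequences are those of RefSeq on GRCm38.p6, not those of the array's own build, mm9 per the file headers.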

Additional observations from a re-analysis of the deposited data

How the results depend on the processing

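Of 19 alternative settings, Ndufa4 kept its direction under all 19, from -1.88 to -0.64, and its side of the threshold under 7, with limma adjusted p-values from 0.00621 to 0.211. With each array scaled on its 75th percentile, 75 members were called lower in Irf4 KO IgG against WT, beside 7740 of all 28249 genes. With the bright probes centred on their median the number of members was 4, beside 144 of all 8582 genes. It was 0 under cyclic loess, a minimum of 7, probes well above background on all 6 arrays, the replicate block, the slide row as a block (chosen after seeing the data) and the fit on only the 4 arrays compared, and 0 to 0 with any 1 array left out. The members' median in that comparison was -1.48 and -0.52 under those 2 scalings, and -0.31 to -0.17 with 1 array left out. In blockade against Irf4 KO IgG, 75 and 27 members were called higher under the same scalings. Of all genes, 7873 of 28249 and 570 of 8582 were called higher there. The members' median in that comparison was 1.62 and 0.63 under those 2 scalings. It was 0.22 with a minimum of 12 (chosen after seeing the data), and 0.19 to 0.33 with 1 array left out. In blockade against WT the median was 0.13 under the 75th percentile, and 7e-05 to 0.11 with 1 array left out. Under the 75th percentile, which moves all bright genes, these members turned in Irf4 KO IgG against WT: Atp5a1 (-1.32), Atp5b (-1.19), Atp5g2 (-1.23), Ndufa5 (-1.13), Ndufs1 (-1.03), Ndufv1 (-1.12), Sdha (-0.95) and Sdhd (-1.08). In blockade against Irf4 KO IgG, Atp5l (1.35), Cox7a2l (1.39), Ndufa5 (1.33) and Sdha (1.03) turned. Each gene's group mean was subtracted, and what was left on array 1 was correlated between groups. Over all genes this gave 0.015 for WT and Irf4 KO IgG, -0.20 for WT and blockade, and 0.035 for Irf4 KO IgG and blockade. Over the members it gave 0.16, -0.31 and -0.12. With 2 arrays a group, such correlations cannot tell whether the numbers pair the samples. The replicate block took the number called lower from 1 to 0. The slide as a block was not run, since all arrays share 1 slide. Normexp used the median signal, as chosen after seeing the data. The cause of the lost calls was not tested.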
